A study of Mus musculus with 3 samples.

Results

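The genes of late sterol synthesis described here are 8 of the 54532 genes in the deposited files, chosen by name. They are 7 enzymes that act between squalene and cholesterol (Sqle, Lss, Cyp51, Msmo1, Nsdhl, Hsd17b7 and Dhcr7) and Srebf2, which encodes their main transcription factor. The samples were cells from the dura mater, the outermost of the meninges, of mice that had all been inoculated with 4T1-DM cells (4T1 is a mammary carcinoma line of the mouse) to model metastasis to the dura. The labels name the treatments as PBS, ZOL and ZOL+Ang2 without expanding them, and dorsal dura was taken on day 12. Cells labelled CD45-CD31+PDPN+ (no leukocyte marker, with an endothelial marker and podoplanin) from 6 mice were mixed in each group, so each group is 1 library. The labels do not give strain, age, doses or the way the cells were selected. With 1 library per group there is no replicate check and no test, and every difference below is between libraries and not between treatments with a known spread.

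Animal cells make cholesterol from acetyl-CoA by way of mevalonate, farnesyl pyrophosphate and squalene. Squalene is oxidised and folded into lanosterol, the parent sterol, which then loses methyl groups and has its double bonds shifted and reduced until cholesterol remains. The enzymes sit in the endoplasmic reticulum, and their genes are known as targets of SREBP2, the Srebf2 product, which is carried from that membrane by SCAP, held there by the INSIG proteins when sterol is plentiful, and cut by proteases in the Golgi.

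In the GENCODE M21 annotation of mm10 the genes lie apart from each other: Sqle (ENSMUSG00000022351) at chr15:59315077.0-59331192.0 (plus strand), Lss (ENSMUSG00000033105) at chr10:76531588.0-76557138.0 (plus strand), Cyp51 (ENSMUSG00000001467) at chr5:4081145.0-4104746.0 (minus strand), Msmo1 (ENSMUSG00000031604) at chr8:64718139.0-64733792.0 (minus strand), Nsdhl (ENSMUSG00000031349) at chrX:72918557.0-72958514.0 (plus strand), Hsd17b7 (ENSMUSG00000026675) at chr1:169949535.0-169969241.0 (minus strand), Dhcr7 (ENSMUSG00000058454) at chr7:143823145.0-143848410.0 (plus strand) and Srebf2 (ENSMUSG00000022463) at chr15:82147181.0-82205379.0 (plus strand). All are protein-coding, and values are totals over a gene's exons.

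The 3 libraries were of unequal depth and make-up. Reads recovered from the RPKM values (reads scaled by gene length and library total) numbered 1675532 for PBS, 16586760 for ZOL and 9204901 for ZOL+Ang2. In PBS a single repeat-like gene model, Gm10800, held 16.5% of reads, and many genes seen in the other libraries were listed at 0. Mitochondrial genes held 12.1% of PBS reads, against 1.52% for ZOL and 1.19% for ZOL+Ang2, and chemoreceptor genes 2.87% against 0.0508% and 0.150%. The part of these differences in the comparisons with PBS was not tested. Of 777 protein-coding genes between 20 and 50 CPM (read counts scaled to a common library size) in both ZOL and ZOL+Ang2, 32.7% had no read in PBS. The same was true of 23.7% of 604 genes between 50 and 100 CPM and of 40.4% of 525 genes between 5 and 20 CPM. A value of 0 in PBS is therefore common at the levels of the genes described here.

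Markers of the labelled cell type differed widely between libraries. For Pecam1, which encodes CD31, the PBS library gave 1.08 CPM, ZOL 475 and ZOL+Ang2 177. For Pdpn the 3 values were 18.8, 67.5 and 171 CPM, and for Ptprc, which encodes CD45 and should be absent, 156, 25.1 and 76.1 CPM. Of the other lymphatic markers, Flt4 gave 0.538, 70.9 and 23.8 CPM, Mmrn1 155, 11.5 and 12.0, and Reln 99.6, 8.60 and 7.87. Lyve1 was listed at 0 in all 3 libraries and Prox1 in ZOL and ZOL+Ang2. A listed 0 is weak ground here, since Cd68 was also listed at 0 in ZOL+Ang2 beside 8148 reads of Lyz2, another myeloid gene.

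In every library the 8 genes covered a wide range, and the order among them differed between libraries. Levels are compared between genes as RPKM, which divides by length. Sqle, squalene monooxygenase, which starts the late pathway by putting oxygen into squalene, was listed at 17.4 RPKM for PBS, 13.4 for ZOL and 11.1 for ZOL+Ang2, from 108, 1754 and 719 reads. These 3 values lay within 1.57-fold of each other, the narrowest range in RPKM of the 4 genes with reads in every library. Lss, lanosterol synthase, which closes the rings, was listed at 0, 3.69 and 4.43 RPKM, from 0, 942 and 561 reads. Its ZOL and ZOL+Ang2 values were close, and only PBS stood apart.

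Cyp51, the cytochrome P450 that takes the first methyl group off lanosterol, was listed at 41.6, 6.44 and 30.9 RPKM, from 206, 673 and 1600 reads in PBS, ZOL and ZOL+Ang2. It was the highest of the 8 genes in PBS and in ZOL+Ang2 and the fourth in ZOL. Among protein-coding genes with reads, its RPKM stood at percentile 88.0 for PBS, 67.2 for ZOL and 88.9 for ZOL+Ang2. Cyp51 shares 166 of its 4415 exon bases with Akap9 on the other strand, and the labels do not say whether reads were counted by strand. Akap9 itself was listed at 0.711, 2.69 and 5.73 RPKM, well below Cyp51 in each library.

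Msmo1 and Nsdhl encode a monooxygenase and a dehydrogenase that act in turn to remove the next methyl groups. Msmo1 was listed at 3.05, 10.1 and 19.6 RPKM in PBS, ZOL and ZOL+Ang2, from 21, 1462 and 1415 reads, lowest in PBS and highest in ZOL+Ang2. Nsdhl was listed at 0.626, 20.99 and 12.5 RPKM, from 2, 1418 and 419 reads. Nsdhl was the highest of the 8 genes in ZOL, at percentile 87.4 of protein-coding genes with reads, and its PBS value rests on 2 reads.

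Hsd17b7 encodes the reductase that completes this demethylation, and Dhcr7 the reductase that makes cholesterol from its direct precursor. Hsd17b7 was listed at 0, 5.26 and 1.89 RPKM, from 0, 636 and 113 reads, so that ZOL was the highest library. Dhcr7 was listed at 0, 3.85 and 4.63 RPKM, from 0, 530 and 316 reads. Srebf2 was the lowest of the 8 genes in ZOL and in ZOL+Ang2, at 0.947 and 0.985 RPKM from 161 and 83 reads, and was listed at 0 in PBS. It lay below the mean of 10 CPM that was asked of a gene for the comparisons between libraries, and its values are given here without a call.

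**Figure D1:**
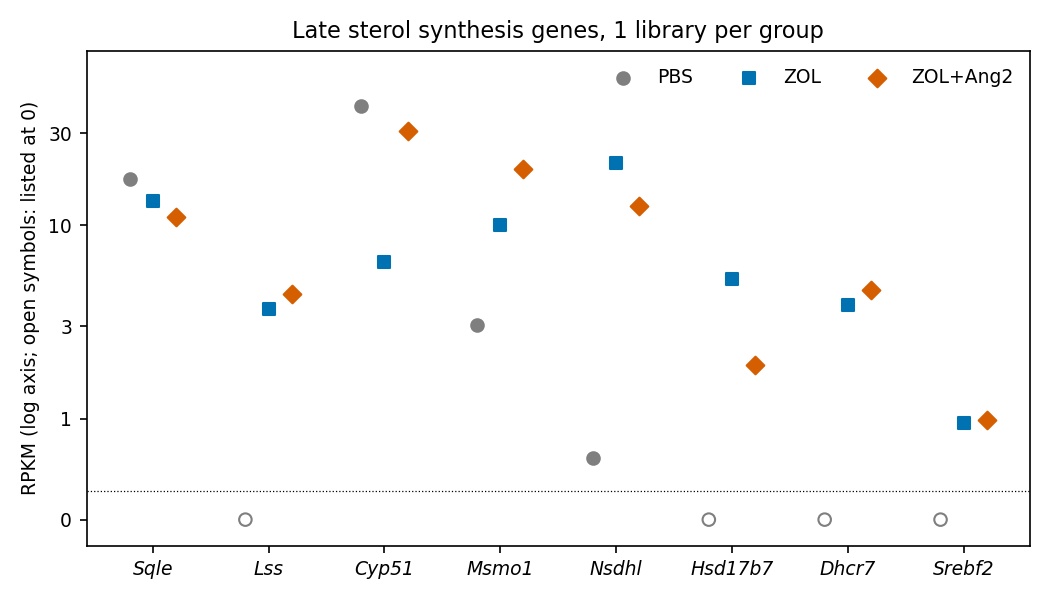
RPKM (log axis) of the 8 genes in the PBS, ZOL and ZOL+Ang2 libraries, 1 point per library, with open symbols below the dotted line for values of 0. Lss, Hsd17b7, Dhcr7 and Srebf2 are at 0 in PBS, Cyp51 is low in ZOL at 6.44, and Nsdhl is highest in ZOL at 20.99.

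The shares of the 8 genes in their summed RPKM do not depend on how the libraries are scaled to each other. That sum was 62.7 RPKM for PBS, 64.6 for ZOL and 86.0 for ZOL+Ang2. Cyp51 took 66.4% of the PBS sum, 9.97% of the ZOL sum and 35.9% of the ZOL+Ang2 sum. Nsdhl took 0.998%, 32.5% and 14.6%, the opposite order of libraries. In ratio, Cyp51 stood at 2.40 times Sqle in PBS (95% counting interval 1.89 to 3.05), at 0.482 times in ZOL (0.440 to 0.527) and at 2.80 times in ZOL+Ang2 (2.56 to 3.06). Cyp51 was thus above Sqle in PBS and ZOL+Ang2 and below it in ZOL, by more than counting error in each. Msmo1 stood at 0.479 times Nsdhl in ZOL (0.445 to 0.515) and at 1.57 times Nsdhl in ZOL+Ang2 (1.41 to 1.75). Their order in RPKM was thus also exchanged. In ZOL their reads were nearly equal, at 1462 and 1418, so the order there rests on annotated exon lengths of 6144 and 2853 bases. The change of ratio between libraries does not depend on those lengths. Such counting intervals hold the counting of reads only. They leave out the amplification of the RNA, the spread between mice and any error in the exon lengths. Amplified reads without molecular identifiers are not independent molecules.

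**Figure D2:**
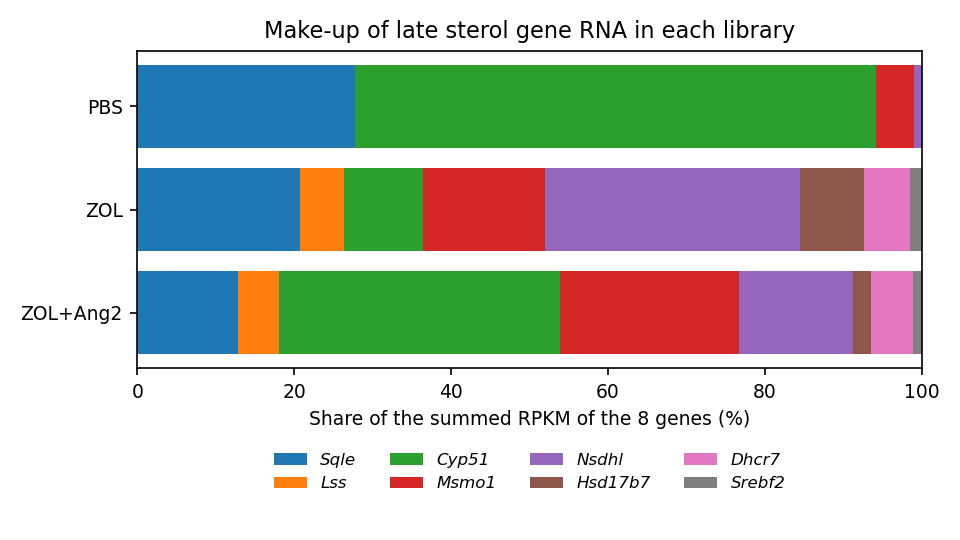
Share of each gene (%) in the summed RPKM of the 8 genes, 1 bar per library. Cyp51 takes 66.4% of the PBS bar, 9.97% of the ZOL bar and 35.9% of the ZOL+Ang2 bar, and Nsdhl takes 32.5% of the ZOL bar.

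The promoters are shown because these genes are known to share a regulator, and their values differed in opposite directions between ZOL and ZOL+Ang2. RefSeq promoter windows (GRCm38.p6, 250 bases before the transcript start and 50 from it) were at hand for 7 of the 8 genes, Dhcr7 with 3 windows. Stretches of Cyp51, which was higher in ZOL+Ang2 than in ZOL, and of Hsd17b7 and Nsdhl, which were lower, are given 5′ to 3′ on the gene's strand, with 30 bases of Msmo1. Capitals mark TCACNNCA, a relaxed form of the sterol regulatory element to which SREBP binds, and the CCAAT box, the site of NF-Y, each in either orientation (CCAAT reads ATTGG on the other strand).
Cyp51: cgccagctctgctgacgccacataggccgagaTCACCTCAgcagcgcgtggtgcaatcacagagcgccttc
Hsd17b7: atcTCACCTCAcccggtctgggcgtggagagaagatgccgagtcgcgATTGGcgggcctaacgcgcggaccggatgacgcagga
Nsdhl: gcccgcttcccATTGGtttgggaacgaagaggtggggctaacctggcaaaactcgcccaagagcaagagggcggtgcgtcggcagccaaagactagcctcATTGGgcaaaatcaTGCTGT
Msmo1: tagcacggaCCAATCACTGCAcggcgaagg
These lie at chr5:4104747-4104817 (minus strand), chr1:169969242-169969325 (minus strand), chrX:72918401-72918520 (plus strand) and chr8:64733654-64733683 (minus strand). The stretches of Cyp51, Hsd17b7 and Nsdhl end before the transcript start in both RefSeq and GENCODE, and the last capitals of Nsdhl begin a match that runs across the start.

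Most of these windows shared the same motif letters. A gene was counted when any of its windows held the letters, and no share was tested. CCAAT was found in 7 of 7 genes, against 41.1% of the 27025 genes with a window, and GGGCGG, the GC box, in 7 of 7 against 38.2%. For Dhcr7, CCAAT lay in window 3 alone and the GC box in windows 1 and 3. TCACNNCAC, the relaxed form searched first, was found in 3 of 7 (Msmo1, Hsd17b7 and Dhcr7) against 4.37%, and TCACNNCA, shortened by a base after the Cyp51 window had been read, in 6 of 7 (not in Lss) against 15.7%. The exact letters TCACCTCA, one of the forms that TCACNNCA covers and taken from the Cyp51 window, were in Cyp51 and Hsd17b7, and in 1.37% of all genes. CACGTG, an E-box, was in Hsd17b7 and Dhcr7 (8.09% of all genes), and the classical sterol regulatory element in its exact form was in 0 of 7 (0.0999%). All motifs were searched on both strands, and in Msmo1 the first base of TCACNNCA is also the last of the CCAAT box. Because TCACNNCA and TCACCTCA were chosen with windows of these genes in view, their counts are descriptions and carry no weight against the shares of all genes. A match is a run of letters and not a measured binding site.

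**Figure D3:**
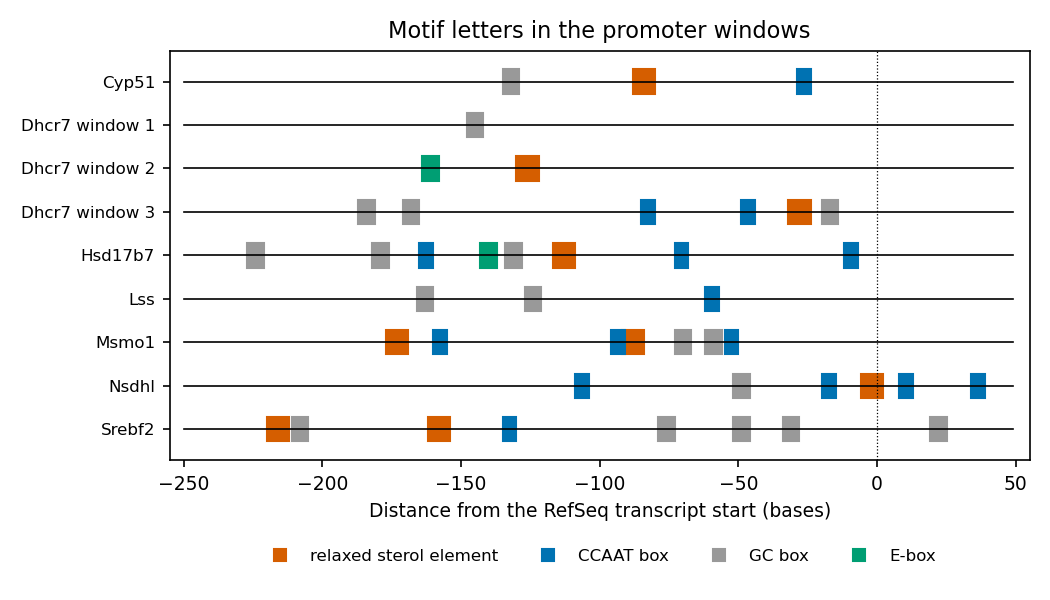
Position of motif letters along the RefSeq promoter windows, in bases from the transcript start (dotted line), 1 line per window. CCAAT and GC boxes appear in windows of all 7 genes drawn, and the relaxed sterol element in those of 6, with Lss the exception.

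ZOL+Ang2 against ZOL compares the deeper libraries and addresses the addition of Ang2 to ZOL. Cyp51 was 4.26-fold higher in ZOL+Ang2 (95% counting interval 3.89 to 4.66), at 182 against 42.9 CPM. Hsd17b7 was 3.14-fold lower (2.57 to 3.88), at 12.9 against 40.5 CPM. The others of the 8 lay within 2-fold. Msmo1 was 1.73-fold higher (1.61 to 1.86), at 161 against 93.1 CPM. Nsdhl was 1.89-fold lower (1.69 to 2.11), at 47.8 against 90.3 CPM, and Sqle 1.36-fold lower (1.25 to 1.49), at 82.0 against 112 CPM. Lss, Dhcr7 and Srebf2 were at 1.07 (0.958 to 1.18), 1.07 (0.925 to 1.23) and 0.923 (0.699 to 1.21) times their ZOL level, intervals that include no difference. The late pathway thus held 1 gene at least 2-fold higher and 1 lower among the 7 that were compared, where a call used the log2 ratio with 5 CPM added to both values. Of all 10942 genes whose mean reached 10 CPM, 16.2% were higher and 24.9% lower by the same rule. Hsd17b7, with 0 reads in PBS, reached that mean only through ZOL. It had to be lower in ZOL+Ang2 to some degree, so its call is no support for a change. The median of the 7 genes was 0.08 on the log2 scale and that of all genes -0.02. Among all genes, Cyp51 stood at percentile 93.8 and Hsd17b7 at percentile 19.996, so that differences of their size were not rare in these libraries. With 20 CPM added in place of 5, Hsd17b7 lay within 2-fold.

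These are whole-pool values, in which fewer cells of a type and less RNA per cell cannot be told apart. The marker lists differed between the same libraries. All 11 pan-endothelial genes had reads in each library and summed to 4112 CPM for ZOL and to 1506 for ZOL+Ang2 (3014 in PBS). The 7 fibroblast genes, all with reads in both, summed to 976 and 11349 CPM (349.8 in PBS, with Lum and Pdgfra at 0). The 8 leukocyte and myeloid genes summed to 126 and 1957 CPM (1202 in PBS), with Cd68 at 0 in each library, C1qa also in ZOL and C1qb also in PBS. The 5 erythroid genes summed to 5.54 and 25141 CPM (191 in PBS), with Alas2 at 0 in ZOL. Keratins and other genes of carcinoma and epithelium, 6 of 6 with reads in both, summed to 5530.3 and 5339.5 CPM (639 in PBS, with Krt19 at 0). The 6 genes of dividing cells summed to 1176 and 760.3 CPM (88.3 in PBS), with Ccnb1 at 0 in ZOL+Ang2 and in PBS. The 6 mural genes summed to 838 and 360.2 CPM (2.69 in PBS, from Acta2 alone), with Tagln at 0 in ZOL and Myh11 in ZOL+Ang2. Acta2 carried that sum, at 670 and 108 CPM, while Pdgfrb (21.9 and 126) and Cspg4 (1.40 and 62.3) were higher in ZOL+Ang2. Of the lymphatic list, 4 of 6 genes had reads in ZOL and in ZOL+Ang2, summing to 158.5 and 214 CPM (275 in PBS). Pdpn carried the higher sum in ZOL+Ang2, at 67.5 and 171 CPM, while Flt4 was lower, at 70.9 and 23.8, and the other 2 lay within 2-fold. The 5 lymphocyte genes summed to 266 CPM in PBS and 0.446 in ZOL and were at 0 in ZOL+Ang2. The part of these other cells in the sterol gene differences was not tested.

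ZOL against PBS addresses ZOL alone. Cyp51 was lower in ZOL, 2.59-fold (2.201 to 3.03), the only one of the 8 genes with a lower CPM there, at 42.9 against 111 CPM. Msmo1 was 8.24-fold higher (5.37 to 13.4), at 93.1 against 11.3 CPM, and Nsdhl 83.9-fold higher (23.2 to 694, from 2 PBS reads). Sqle stood at 112 against 58.1 CPM, a ratio of 1.92 (1.58 to 2.36) that lay within the 2-fold limit of a call and below 1 in RPKM. The genes with 0 PBS reads were higher by at least 37.2-fold for Lss, 25.1-fold for Hsd17b7, 20.9-fold for Dhcr7 and 6.35-fold for Srebf2. These bounds set 3 reads in the PBS library as the floor (1.61 CPM) and hold for counting error alone. By call, 5 of 7 genes were higher and 1 lower, and of all genes compared 49.2% were higher and 29.4% lower. Of these 5, Lss, Hsd17b7 and Dhcr7, with 0 PBS reads, entered the comparison through ZOL and ZOL+Ang2 and had to be higher. Nsdhl, with 2 PBS reads, entered in the same way, so the count supports nothing about the pathway. Relative to the median of all genes, which stood at 0.94 on the log2 scale, Sqle was at -0.05 and Cyp51 at -2.22.

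ZOL+Ang2 against PBS shares a library with each of the former comparisons, so its values are set beside theirs and are not independent of them. Cyp51 stood at 182 against 111 CPM, a ratio of 1.65 (1.42 to 1.91), and Sqle at 82.0 against 58.1 CPM, a ratio of 1.41 (1.15 to 1.74). Both lay within 2-fold, and both were below 1 in RPKM. Msmo1 was 14.3-fold higher (9.30 to 23.1) and Nsdhl 44.4-fold higher (12.2 to 368, from 2 PBS reads). The bounds for the genes at 0 in PBS were at least 39.6-fold for Lss, 22.3-fold for Dhcr7, 7.98-fold for Hsd17b7 and 5.86-fold for Srebf2. By call 5 of 7 genes were higher and 0 lower, where 44.2% of all genes were higher and 33.1% lower, and the same limit holds for Nsdhl and the genes at 0 in PBS.

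The scale set the direction of the smaller differences from PBS and the size of the larger ones. As deposited RPKM, the ratio for Sqle was 0.768 in ZOL and 0.636 in ZOL+Ang2 against PBS, and that for Cyp51 in ZOL+Ang2 was 0.742, so these have no direction that holds on both scales. Msmo1 was 3.29-fold higher than PBS in ZOL and 6.44-fold in ZOL+Ang2 as RPKM, and Nsdhl 33.5-fold and 20.01-fold. With the same floor of 3 reads, the RPKM bounds in ZOL were at least 14.9-fold for Lss, 10.03-fold for Hsd17b7, 8.36-fold for Dhcr7 and 2.54-fold for Srebf2. In ZOL+Ang2 they were 17.9-fold for Lss, 10.06-fold for Dhcr7, 3.598-fold for Hsd17b7 and 2.64-fold for Srebf2. The lower Cyp51 in ZOL kept its direction, at 0.155 times the PBS value in RPKM, and so did its 4.80 times higher RPKM in ZOL+Ang2 than in ZOL. Median-of-ratios scaling moved the median of all genes in ZOL against PBS from 0.94 to -0.16 on the log2 scale, and the higher share of genes past 2-fold from 62.6% to 47.5%.

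**Figure D4:**
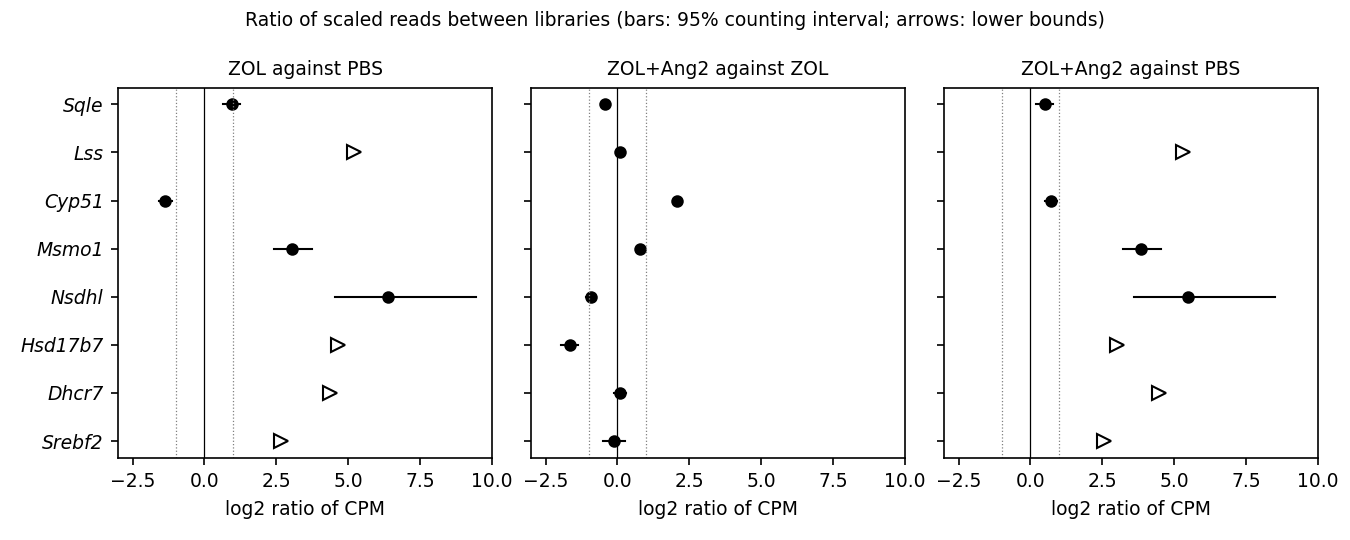
Log2 ratio of CPM for the 8 genes in the 3 comparisons, with 95% counting intervals as bars, arrows for lower bounds against 0 PBS reads and dotted lines at 2-fold. In ZOL+Ang2 against ZOL only Cyp51 (4.26-fold higher) and Hsd17b7 (3.14-fold lower) lie outside the dotted lines.

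Of the remaining enzymes of the late pathway 7 were compared, and 1 was higher and 1 lower in ZOL+Ang2 than in ZOL, where 16.2% of all genes were higher and 24.9% lower. Por, the reductase that feeds electrons to cytochromes P450 and to squalene monooxygenase, was 4.55-fold higher (4.25 to 4.88), at 75.5, 12.0 and 61.3 RPKM in PBS, ZOL and ZOL+Ang2. Its libraries stood in the same order as those of Cyp51, which takes its electrons from Por. Those of Sqle, at 17.4, 13.4 and 11.1 RPKM, did not. With 3 libraries few orders are possible, and Apoe, at 1544, 266 and 770.3 RPKM, had this order too, so it is not particular to the pair. Ebp, the isomerase that shifts a sterol double bond, was 3.13-fold lower (2.81 to 3.50), at 116, 38.8 and 14.0 RPKM. Cyb5a, an electron carrier, was the most abundant of the list in PBS at 253 RPKM, and stood at 21.3 RPKM for ZOL and 26.1 for ZOL+Ang2. Cyb5r3, its reductase, was so in ZOL, at 64.8, 82.8 and 51.1 RPKM. In ZOL+Ang2 it was Por. Lbr, a sterol reductase of the nuclear membrane, was at 0 in PBS and lay within 2-fold between the other libraries, 1.25-fold higher in ZOL+Ang2 than in ZOL (1.10 to 1.41). Tm7sf2, a further sterol reductase, had 0 reads in all 3 libraries.

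The early mevalonate and isoprenoid list holds the steps before squalene and Ggps1, which lies on a side branch. Of its 7 genes compared in ZOL+Ang2 against ZOL, 4 were lower and 0 higher, against 24.9% lower and 16.2% higher of all genes, with a median of -1.03 against -0.02. Of the 4, Fdft1 and Mvd reached the mean of 10 CPM only through ZOL and had to be lower, so count and median are no support for a change of these steps. Fdft1, squalene synthase, which supplies the substrate of Sqle, had 2, 3703 and 6 reads in PBS, ZOL and ZOL+Ang2 and was 345-fold lower in ZOL+Ang2 (158 to 940.2). Pmvk, which phosphorylates phosphomevalonate, had 121, 2059 and 2 reads. The 8 late genes had at least 83 reads each in these 2 libraries. Sharp losses were not confined to the early genes. Ccnb1 had 1626 reads in ZOL and 0 in ZOL+Ang2, and Ccna2 1919 and 4, while the other 4 genes of dividing cells lay within 2-fold. Fewer genes had reads in ZOL+Ang2 (15713) than in ZOL (18592). The part of missed reads in such losses was not tested. In ZOL against PBS, 5 of the 7 early genes compared were higher and 0 lower, where 49.2% of all genes were higher and 29.4% lower. Of these 5, Mvd had 0 PBS reads and Acat2, Hmgcs1 and Fdft1 had 2 each, so they entered through the other libraries and the count supports nothing.

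Among the genes that control SREBP, 1 of 8 was higher and 3 lower in ZOL+Ang2 than in ZOL, where 16.2% of all genes were higher and 24.9% lower. Mbtps2, a protease that frees SREBP, was 3.06-fold higher (2.50 to 3.76), whereas Mbtps1, the protease that makes the preceding cut, was 3.44-fold lower (3.07 to 3.86). Srebf1, the related factor of fatty acid synthesis, was 5.17-fold lower (4.33 to 6.20), at 0.634, 9.63 and 2.10 RPKM in PBS, ZOL and ZOL+Ang2. Stard4, a sterol carrier, was 3.63-fold lower (3.04 to 4.35). Scap stood at 0.989 times its ZOL level (0.868 to 1.13) and Insig1 and Insig2 at 1.53 (1.33 to 1.76) and 1.72 times (1.55 to 1.91). Srebf2 and its escort Scap were thus close between these libraries while Srebf1 was not. Of the genes called here, Mbtps2 reached the mean of 10 CPM only through ZOL+Ang2 and had to be higher. Srebf1 and Stard4 reached it only with their ZOL reads. These counts and contrasts are therefore no support for a change of SREBP control. In ZOL against PBS 7 of the 8 were higher, where 49.2% of all genes were. All of these but Mbtps1 had 0 to 4 PBS reads and entered through the other libraries, so this count too supports nothing.

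Of 8 genes for uptake and lysosomal handling of cholesterol, 2 (Lrp1 and Npc1) were higher and 1 lower in ZOL+Ang2 than in ZOL, and of 6 storage and efflux genes 2 were higher and 1 lower. Of all genes 16.2% were higher and 24.9% lower, and counts this small are given as descriptions. Scarb1, the receptor that takes cholesterol from HDL, was 3.798-fold lower (3.52 to 4.10), at 37.6, 26.5 and 7.86 RPKM in PBS, ZOL and ZOL+Ang2. Lrp1, a lipoprotein receptor, was 2.08-fold higher (1.96 to 2.21). Npc2, which moves cholesterol out of the lysosome, was the most abundant of this list in ZOL and ZOL+Ang2, at 95.2 and 106 RPKM, and stood at 0.987 times its ZOL level (0.958 to 1.02). Lipa, which frees cholesterol from its esters in the lysosome, was listed at 163, 30.8 and 23.0 RPKM. Of the storage and efflux genes, Soat1, which esterifies cholesterol, was 3.15-fold higher (2.88 to 3.45), and Apoe, the carrier apolipoprotein, 2.56-fold higher (2.51 to 2.62), at 1544, 266 and 770.3 RPKM. Nceh1, which hydrolyses cholesterol esters, was 4.22-fold lower (3.36 to 5.37). Both Soat1 and Apoe are abundant in macrophages, and the leukocyte and myeloid list, which also holds neutrophil genes, came to 126 CPM for ZOL and 1957 for ZOL+Ang2. The part of those cells was not tested.

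**Figure D5:**
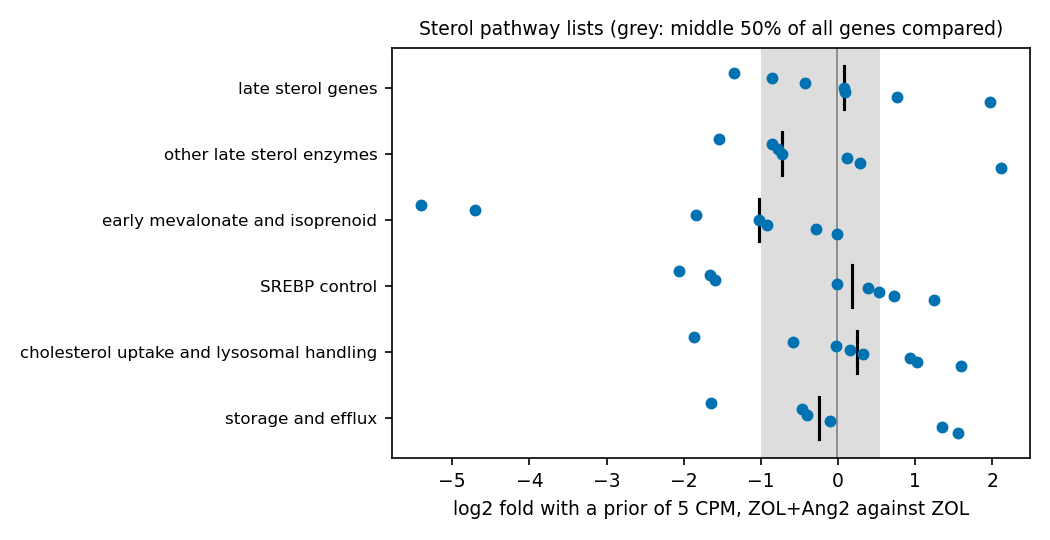
Log2 fold (5 CPM added) of single genes in ZOL+Ang2 against ZOL, 1 row per list, with black bars at list medians, a grey band over the middle 50% of all genes compared and a line at their median. The late sterol genes run from -1.35 (Hsd17b7) to 1.97 (Cyp51) around a median of 0.08, and the early genes reach -5.41 (Fdft1).

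The genes whose profile over the 3 libraries lay nearest to the median profile of the 8 were sought among 7053 protein-coding genes that averaged 20 CPM or more, by Euclidean distance of centred log2 values. The nearest were Dpm3, Csnk1e, Smarcc2, Pcnx3 and Nop58, at distances of 0.129 to 0.133. For Dpm3 the PBS library gave 2.69 CPM, ZOL 41.6 and ZOL+Ang2 42.5, and the others were likewise low in PBS and close between ZOL and ZOL+Ang2. Of the 8 genes themselves, Dhcr7 was nearest to that median, with 166 genes nearer still, and Cyp51 was farthest, with 4915 nearer. With 3 libraries, many genes have near profiles by this measure.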

How the data were processed

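The 3 deposited files hold RPKM values per Ensembl gene, made by the authors with a library total that the labels do not state. The tools fastp, HISAT2 2.2.1 and featureCounts 2.0.6 and the build mm10 are named, per the submitters' processing notes. Per the labels' protocols, cDNA was amplified from total RNA. Symbols, exon lengths and coordinates came from GENCODE M21. RPKM times exon length was divided by the value of 1 read. The share of nonzero values that were whole within 0.01 was 96.9% for PBS, 96.4% for ZOL and 96.2% for ZOL+Ang2. The reads came to a different share of the implied total in each library. They exceeded it in PBS (1675532 against 1.12e+06). They fell below it in ZOL (16586760 against 2.37e+07) and ZOL+Ang2 (9204901 against 1.17e+07). The reads may thus differ from the counts behind the files. Among genes with up to 40 reads, an even number was found for 61.0% (PBS), 53.2% (ZOL) and 51.0% (ZOL+Ang2), so some fragments may count as 2 reads and intervals may be too narrow.

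CPM used TMM factors (1.11 for PBS, 0.946 for ZOL, 0.953 for ZOL+Ang2). Genes were compared where their mean reached 10 CPM, which 7 of the 8 did. A call is a log2 ratio of at least 1 in size with 5 CPM added to both values. A named fold is the ratio of CPM with an exact 95% binomial interval, and against 0 reads a bound from a floor of 3 reads. No test was run. The rule for named genes took the 8 genes, Fdft1, the gate markers, the 2 highest, 2 lowest and 2 most abundant of each pathway list, the 2 most abundant of each cell list and the 5 nearest profiles, and not all of these are printed. Akap9, Scap, Insig1, Tm7sf2, Mvd and the cell markers beyond the most abundant fall outside it and were picked with their values known. The 8 genes and all lists were chosen with earlier results of these data known. Some genes of the pathway and cell lists are not reported here and are in no list count, sum or median. Faxdc2 matched no symbol and Ccl21a no single ID. Lss shares 381 of its 10787 exon bases with 4930483K19Rik on the other strand, which was listed at 0 in all 3 libraries. The longest single stretch matched between a transcript of the 8 genes and one of another gene, at 90% identity or more, was 227 bases (Dhcr7). Stretches of 100 bases or more matched 361 other genes for Msmo1, the most of the 8, and 0 for Nsdhl. The recovery of reads and the folds were tested on simulated data. Python 3.11.15, numpy 2.4.6, pandas 2.3.3 and scipy 1.17.1 were used.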

Additional observations from a re-analysis of the deposited data

How the results depend on the processing

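With 1 library per group no replicate could be left out, and no paired analysis was possible because each group has 1 library and the labels give no replicate numbers. The 8 alternatives covered scaling, the added CPM, the filter and depth. Over them, the folds of single sterol genes kept their direction in 51 of 52 values for ZOL against PBS, 51 of 52 for ZOL+Ang2 against ZOL and 48 of 52 for ZOL+Ang2 against PBS, and their call in 52, 51 and 51. Many of these values were fixed in advance. A change of filter leaves the fold and call of a gene as they were, and a change of the added CPM cannot turn its direction. Only the alternatives of scaling and depth could change a direction, so these counts overstate how stable the directions were. The count of lower genes in ZOL+Ang2 against ZOL went from 1 to 0 with 20 CPM added and with a filter of 50 CPM, under which 3 of the 8 genes were compared. Under that filter each library given ZOL had 1 gene higher than PBS, where 5 were before, and the medians were 0.89, 0.76 and 0.69 in ZOL against PBS, ZOL+Ang2 against ZOL and ZOL+Ang2 against PBS (2.95, 0.08 and 3.04 before), since fewer genes were tested. The medians against PBS also followed the added CPM, because they rest on genes at 0 in PBS: 5.12 and 3.795 with 1 CPM and 1.60 and 1.49 with 20 CPM, for ZOL and ZOL+Ang2. The median in ZOL+Ang2 against PBS was 2.40 as deposited RPKM and 2.44 with a filter of 1 CPM, which let Srebf2 in. The PBS depth limits every value against it. A median was taken as kept when it moved by less than 1.5-fold, a limit set for this purpose since there is no spread between replicates.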
